A study of Mus musculus with 6 samples.

Results

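The 41 genes described here are regulators and effectors of the cell cycle and of DNA replication, taken by their symbols from the 24062 genes counted in each library. They comprise 10 cyclins, kinases and Rb-E2F genes of G1, 6 inhibitors of cyclin-dependent kinases (CDKs), 12 genes of DNA replication and 13 genes of G2 and mitosis. RNA was sequenced from CD31+ckit+Vmed and CD31+ckit+Vhigh cells sorted from the aorta-gonad-mesonephros (AGM) of embryonic day (E) 10.5 Gata2Venus embryos on a C57BL/6JOlaHsd background, with 3 libraries per fraction numbered 1, 2 and 3. All embryos carried a Venus reporter allele (G2V/+), an IRES-Venus cassette behind an intact Gata2 gene, so that the fractions share genotype, age and tissue and differ in the brightness of Venus. CD31 is an endothelial and hematopoietic surface protein, ckit is the receptor for stem cell factor, and cells bearing both include those leaving the aortic endothelium and those of the clusters attached to it. Neither fraction is a single cell type, the number of embryos pooled per library is not given in the labels, and each library is an average over many cells, so that fewer cycling cells and less RNA per cycling cell cannot be told apart.

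The cell cycle is driven by CDKs, which act only when bound to a cyclin. In G1, D-type cyclins with Cdk4 or Cdk6, then E-type cyclins with Cdk2, phosphorylate the retinoblastoma protein Rb1 and release E2F transcription factors, which switch on the genes for DNA replication, while inhibitors of the Cip/Kip and Ink4 families hold these kinases back. A later wave of transcription, through promoter elements read by the MuvB complex, supplies the cyclins, kinases and spindle proteins of mitosis. In the embryo, cells of the aortic clusters are known to divide, whereas adult hematopoietic stem cells are mostly quiescent.

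Levels are given as CPM, the counts of a gene per 1000000 counts on all genes of that library. The libraries held between 8296831 and 12035206 gene counts, so that the 3 counts taken as the smallest amount to be shown equal 0.249 to 0.362 CPM, a limit that covers counting error only. Fold changes come from edgeR's fit with TMM normalization and are log2, Vhigh over Vmed. Together the 41 genes took between 0.937% and 1.26% of the counts of a library. The libraries differed by replicate number in ways the fractions do not explain, as the 45S ribosomal RNA precursor Rn45s took 10.5% and 7.47% of gene counts in the Vmed and Vhigh libraries numbered 3 and between 0.887% and 1.53% in the other 4. Vhigh library 1 had the fewest genes with a count, 10427, and Vhigh library 2 the most, 18460, against 12709 to 15812 in the other 4. Markers of other cells were present in both fractions, with 4 to 7 of 12 erythroid markers at 0 in a library, among them the adult globins, and the others mostly above 0. Alignments that were not unique, 41.3% to 57.7% of those reported, were counted for no gene. Reads shared among gene copies may thus be missing, and the 0 counts of the adult globins do not show their absence. The summed level of 12 mesenchyme markers ranged from 2440 to 5531 CPM in Vmed and from 372 to 833 CPM in Vhigh, that of 12 macrophage markers from 1054 to 2051 CPM in Vmed and from 144 to 589 CPM in Vhigh, that of 10 megakaryocyte markers from 422 to 1014 CPM in Vmed and from 289 to 398 CPM in Vhigh, and that of 16 stem and progenitor markers from 903 to 1579 CPM in Vmed and from 1886 to 4377 CPM in Vhigh. The sums of 16 endothelial markers (1588 to 7143 CPM in Vmed, 1322 to 4833 CPM in Vhigh) and of the erythroid markers (188 to 602 CPM, 101 to 233 CPM) overlapped. Their part in any difference between the fractions described here was not tested.

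The first question was whether the fraction with more Venus differed from the other in these genes. No difference was shown for any of them. Of the 41 genes, 39 had enough counts to be tested, and 0 of these 39 passed edgeR's quasi-likelihood test at an adjusted p under 0.05, as did 0 of all 12688 genes tested (0%). At an unadjusted p under 0.05 there were 0 of 39, against 2.04% of all tested genes. The number of these genes called stayed at 0 with edgeR's likelihood ratio test, which called 0.166% of all tested genes, with DESeq2, which called 0.402%, with limma-voom, which called 0%, and with the likelihood ratio test and the replicate number as a block, which called 0.583%. The unadjusted p-values of the 39 genes lay between 0.195, for Cdkn2c, and 0.979, for Mcm5, and each had an adjusted p of 0.9998. In 0 of 39 genes the 3 Vhigh libraries lay entirely above or entirely below the 3 Vmed libraries, against 4.15% of tested genes that lay above and 4.71% that lay below. The smallest exact permutation p among them was 0.2, where 3 libraries against 3 cannot go below 0.1.

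These results do not show that the fractions are alike. The 95% interval of the difference stayed within 4-fold in either direction for 27 of the 39 genes and within 2-fold for 0. For 39 of 39 the log2 range of the libraries in the more variable fraction was larger than the difference between the fractions. This did not hold for the less variable fraction of every gene, as the Vhigh range of Mcm7 was 0.105 and its difference 0.41. The biological coefficient of variation over all genes was 1.16. The median log2 fold change, Vhigh over Vmed, was 0.037 over the 39 genes, with 22 above 0 (56.4%, beside 48.9% of all tested genes) and 17 below, and -0.020 over all tested genes. The labels do not say whether the 3 libraries of a fraction came from separate groups of embryos. The paper that reported these data describes its expression values in the fractions as coming from 3 independent experiments. The p-values measure the spread between these libraries, which may be technical in part.

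**Figure D1:**
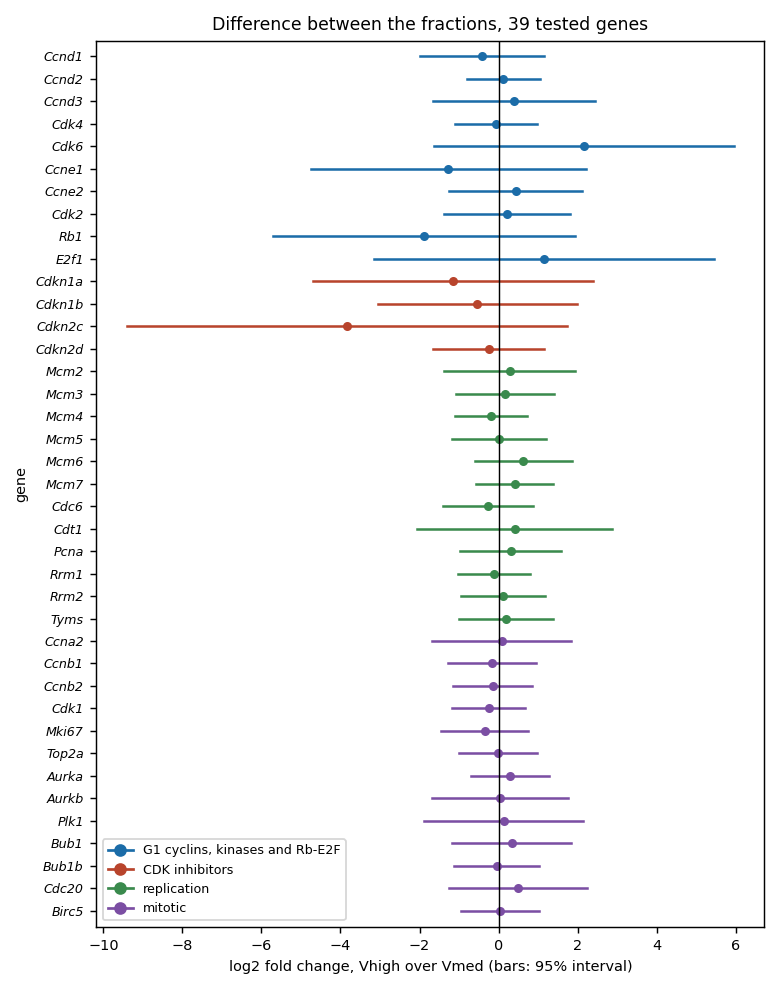
Log2 fold change of the 39 tested genes on the horizontal axis, Vhigh over Vmed, with the 95% interval from edgeR's quasi-likelihood fit as a bar (3 libraries per fraction) and colours for the 4 groups of genes. Every interval includes 0, those of Cdk6, Ccne1, Rb1, E2f1, Cdkn1a and Cdkn2c being the widest.

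Among the G1 genes, the transcripts for Cdk4 and cyclin D2 were abundant in both fractions and those for Cdk6, Rb1 and E2f1 were sparse. Cdk4 (chr10:127063534-127067920 in GRCm38), a catalytic partner of the D-type cyclins, had 1693, 845 and 1073 CPM in Vmed libraries 1, 2 and 3 and 1446, 1027 and 1050.3 CPM in the Vhigh libraries. It was the most abundant member of its group per kilobase of exon in 6 of 6 libraries, and its log2 fold change was -0.059 (standard error 0.46, exact two-sided permutation p = 1). In both fractions the library numbered 1 was the highest for Cdk4, and the means were 1204 ± 439 CPM in Vmed and 1175 ± 236 CPM in Vhigh (SD, n = 3). On the scale of CPM per kilobase of exon (RPKM), Cdk4 made up 98.9% or more of the sum of Cdk4 and Cdk6 in each of 6 libraries. Reads counted for Cdk4 may include some from Tspan31, which overlaps its exons by 641 bases on the opposite strand, since the strand setting of the counting is not given.

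Cdk6 (chr5:3341485-3531008), the other partner of the D-type cyclins, had the largest difference of the group in size. Its levels were 1.03, 4.82 and 10.1 CPM in Vmed libraries 1, 2 and 3 and 0.281, 26.0 and 48.1 CPM in the Vhigh libraries. The Vhigh libraries held both the lowest value, in number 1, and the 2 highest, so that the fractions overlapped. The log2 fold change was 2.16 with a standard error of 1.71 and a 95% interval of -1.64 to 5.96 (exact two-sided permutation p = 0.7). Without Vhigh library 3 it was 1.18, and without Vmed library 3 it was 3.06.

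The D-type cyclins carry growth signals to Cdk4 and Cdk6. Cyclin D2 (Ccnd2) had 470.1, 459 and 436 CPM in Vmed libraries 1, 2 and 3 and 339, 595 and 600.2 CPM in the Vhigh libraries, the smallest relative spread of the 3. Cyclin D1 (Ccnd1) had 105, 73.4 and 254 CPM in Vmed libraries 1, 2 and 3 and 78.9, 52.2 and 193 CPM in the Vhigh libraries, and was lower in Vhigh than in the Vmed library of the same number in 3 of 3. Cyclin D3 (Ccnd3) had 45.1, 49.2 and 229 CPM in Vmed libraries 1, 2 and 3 and 46.2, 54.6 and 328 CPM in the Vhigh libraries, and was higher in Vhigh in 3 of 3. Within each of these last 2 genes the libraries numbered 3 were the highest of their fraction, and the fractions overlapped. The log2 fold changes were -0.43 for Ccnd1 (standard error 0.71), 0.12 for Ccnd2 (standard error 0.41) and 0.39 for Ccnd3 (standard error 0.92). In the balance among the 3 cyclins, the library numbered 3 stood apart in both fractions by the shares of Ccnd2 and Ccnd3. Of their summed RPKM, Ccnd2 made up 64.5%, 69.7% and 36.7% in Vmed libraries 1, 2 and 3 and 62.0%, 78.5% and 44.8% in the Vhigh libraries. Ccnd3 made up 6.63%, 8.01% and 20.6% in Vmed and 9.07%, 7.73% and 26.3% in Vhigh. That library had the smallest share of Ccnd2 and the largest share of Ccnd3. The share of Ccnd1 was 28.9%, 22.3% and 42.7% in Vmed and 28.9%, 13.8% and 28.9% in Vhigh, where number 3 did not stand apart. Ccnd3 overlaps Bysl on the opposite strand and has a processed pseudogene, so that its counts are less certain.

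The remaining G1 genes act between the D-type cyclins and the onset of replication. Cyclin E1 (Ccne1), which activates Cdk2 at the start of S phase, had 83.9, 15.1 and 109.6 CPM in Vmed libraries 1, 2 and 3 and 0, 19.8 and 70.3 CPM in the Vhigh libraries. Vhigh library 1 held 0 counts of Ccne1 among 10660122 gene counts, which allows up to 0.281 CPM, while Vmed library 1 had the second highest level. Vhigh library 1 was also the one with the fewest genes detected. Cyclin E2 (Ccne2), a relative of cyclin E1, was present in it at 85.3 CPM, and over the 6 libraries ranged from 27.1 to 85.3 CPM, higher in Vhigh in 3 of 3 numbers. The transcription factor E2f1 had 0.686, 18.8 and 10.8 CPM in Vmed libraries 1, 2 and 3 and 0, 49.8 and 22.1 CPM in the Vhigh libraries. It too was at 0 in Vhigh library 1 and near the limit in Vmed library 1, so that the libraries numbered 1 were the lowest of both fractions. The log2 fold changes of these 3 were -1.27 for Ccne1 (standard error 1.57), 0.43 for Ccne2 (standard error 0.76) and 1.14 for E2f1 (standard error 1.93), none of which exceeded the spread within the fractions. Leaving out a single library moved Ccne1 between -3.00 (Vhigh library 3) and -0.69 (Vhigh library 1), Ccne2 between 0.13 (Vhigh library 1) and 0.86 (Vmed library 1), and E2f1 between 0.12 (Vhigh library 2) and 1.94 (Vmed library 2). Without Vhigh library 1, E2f1 was at 1.73. Cdk2, the kinase partner of cyclin E, ranged from 38.6 to 323 CPM, with both ends in Vhigh. Rb1, the pocket protein that binds E2F, ranged from 0.281 to 32.4 CPM, with both ends in libraries numbered 1. The exons of Rb1 overlap those of Rcbtb2 and Lpar6 on the opposite strand. The median log2 fold change of the 10 G1 genes was 0.16, with 6 above 0 (60%, beside 48.9% of all tested genes) and 4 below. This median was -0.33 without Vhigh library 3, -0.060 with the replicate number as a block and -0.078 with limma-voom.

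**Figure D2:**
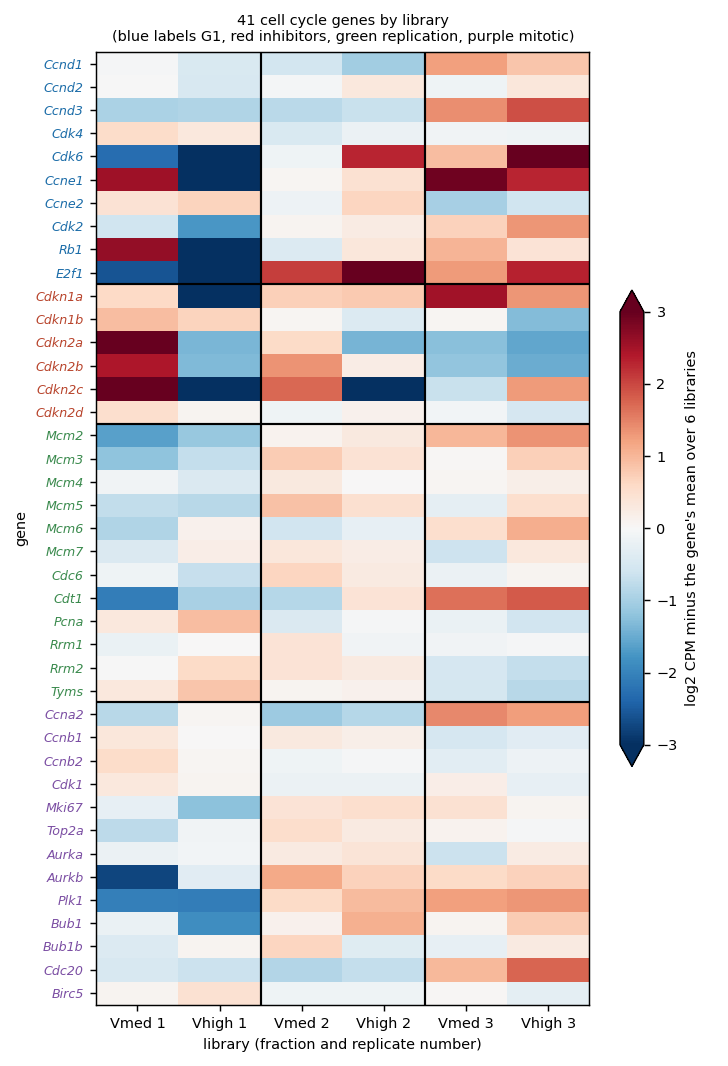
Each row is 1 of the 41 genes and each column 1 library, with Vmed and Vhigh of the same number side by side. The colour gives the log2 CPM (with 0.5 counts added) minus the mean of that gene over the 6 libraries, and is cut off at 3 in either direction. Pairs of columns with the same number often share a colour, as for Ccnd3, Mcm2, Cdt1, Plk1 and Cdc20.

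Of the CDK inhibitors, Cdkn2d was the most abundant, and Cdkn1a and Cdkn1b were lower and at similar mean levels. Of the 6 genes, 4 were tested, and the median log2 fold change of these 4 was -0.85 (-0.52 without Vmed library 3). Above 0 were 0 of the 4 (0%, beside 48.9% of all tested genes), and 4 were below. This direction did not pass a test for any of them. Cdkn2d (p19-Ink4d), an Ink4 protein that binds Cdk4 and Cdk6, was the highest per kilobase in 6 of 6 libraries. It had 102, 65.4 and 67.5 CPM in Vmed libraries 1, 2 and 3 and 75.3, 77.6 and 50.4 CPM in the Vhigh libraries, with overlapping fractions and a log2 fold change of -0.25 (standard error 0.63). Cdkn1b (p27), a Cip/Kip inhibitor known in quiescent cells, had 39.8, 21.5 and 21.5 CPM in Vmed libraries 1, 2 and 3 and 33.0, 15.7 and 8.39 CPM in the Vhigh libraries. It was lower in Vhigh in 3 of 3 numbers, the only inhibitor with this order, but Vhigh library 1 lay above Vmed libraries 2 and 3. The log2 fold change of Cdkn1b was -0.54 (standard error 1.13, exact two-sided permutation p = 0.4), and was -0.14 without Vmed library 1 and -1.34 without Vhigh library 1. Cdkn1a (p21), the inhibitor induced by p53, had 12.8, 13.9 and 48.2 CPM in Vmed libraries 1, 2 and 3 and 0.0938, 14.5 and 21.0 CPM in the Vhigh libraries. Its level in Vhigh library 1 rests on 1 count, below the limit of that library, while the other 5 libraries lay between 12.8 and 48.2 CPM. The log2 fold change of Cdkn1a was -1.16 (standard error 1.59), -0.58 without Vhigh library 1, -0.24 without Vmed library 3 and -1.92 without Vhigh library 3.

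The other Ink4 genes each had libraries with 0 counts. Cdkn2c (p18), at chr4:109660876-109667189, had 17.0, 1.81 and 0.309 CPM in Vmed libraries 1, 2 and 3 and 0, 0 and 1.33 CPM in the Vhigh libraries. Vmed library 1 alone held 149 of its counts, and 2 Vhigh libraries held 0. Its log2 fold change of -3.84 (standard error 2.51, 95% interval -9.41 to 1.73, exact two-sided permutation p = 0.2) was the largest in size of the 39. Without Vmed library 1 it was -1.17, without Vhigh library 3 it was -9.06, and without both libraries numbered 1 it was -0.60. Cdkn2a and Cdkn2b, neighbours on chromosome 4 (chr4:89274471-89294653 and chr4:89306299-89311039), were too low to be tested. Cdkn2a had 34, 1 and 0 counts in Vmed and 0 counts in each Vhigh library, and Cdkn2b had 5, 2 and 0 counts in Vmed and 0, 1 and 0 in Vhigh. In 5 of 6 libraries both were at or under 3 counts. Most counts of each lay in Vmed library 1, and neither gene entered the test between the fractions. Counts of Cdkn2a do not separate its p16 and p19Arf transcripts. The summed level of the 6 inhibitors was 176, 103 and 138 CPM in Vmed and 108, 108 and 81.2 CPM in Vhigh. Vmed library 2 lay below 2 of the Vhigh libraries.

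**Figure D3:**
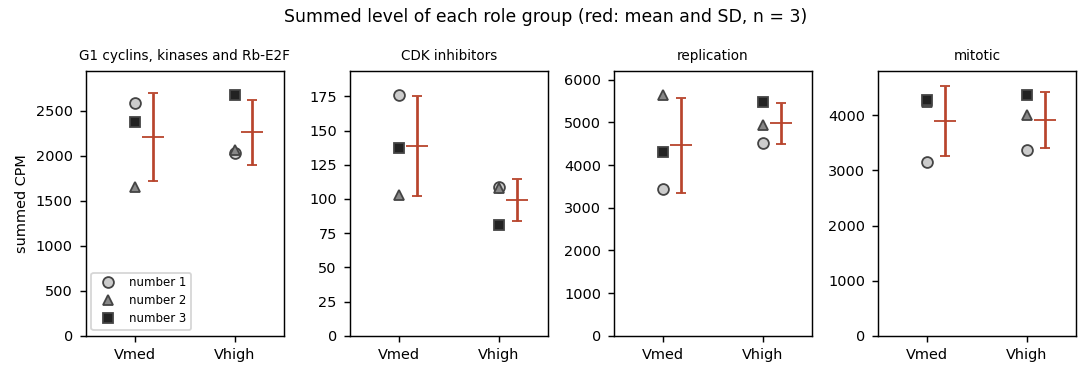
Summed CPM of the genes of each group on vertical axes that start at 0, with 1 marker per library, its shape and shade giving the replicate number, and the mean and SD in red (n = 3 per fraction). The fractions overlap in each of the 4 panels, and the replication sum is lowest in Vmed library 1 and highest in Vmed library 2.

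The replication genes were abundant in both fractions, and 0 of 12 passed the test between them. Their median log2 fold change was 0.18, with 9 of 12 above 0 (75%, beside 48.9% of all tested genes) and 3 below. The median was -0.12 without Vmed library 1 and -0.085 without Vhigh library 3. Their summed level was 3442, 5648 and 4303 CPM in Vmed and 4523, 4941 and 5484 CPM in Vhigh. Rrm2, a subunit of ribonucleotide reductase that makes deoxynucleotides, was the most abundant of the group per kilobase in 5 of 6 libraries. It had 672, 906 and 482 CPM in Vmed libraries 1, 2 and 3 and 1008, 824 and 414 CPM in the Vhigh libraries, and its log2 fold change was 0.11 (standard error 0.48). The library numbered 3 was the lowest of each fraction for Rrm2. Mcm6 (chr1:128331590-128359664), a subunit of the MCM2-7 helicase that unwinds DNA at the fork, had the largest difference of the group. Its levels were 257, 323 and 679 CPM in Vmed libraries 1, 2 and 3 and 524, 405 and 1030.3 CPM in the Vhigh libraries, higher in Vhigh in 3 of 3 numbers with overlapping fractions. The means were 419.7 ± 227 CPM in Vmed and 653 ± 332 CPM in Vhigh (SD, n = 3). The log2 fold change of Mcm6 was 0.63 (standard error 0.55, 95% interval -0.60 to 1.86, exact two-sided permutation p = 0.4). It was 0.19 without Vhigh library 3 and 1.18 without Vmed library 3. With the replicate number as a block, Mcm6 was the only one of the 39 genes with an unadjusted p under 0.05, at 0.046 (2.56%, beside 4.16% of all tested genes), and the smallest adjusted p among the 39 was then 0.987.

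The 6 MCM subunits form a single ring, and their transcripts were not at equal levels. In 5 of 6 libraries Mcm2 was the lowest of the 6 per kilobase, and in Vmed library 3 it was Mcm7. The highest exceeded the lowest 12.7-fold, 7.35-fold and 3.12-fold in Vmed libraries 1, 2 and 3 and 8.92-fold, 5.20-fold and 3.10-fold in the Vhigh libraries. The gap was thus widest in the libraries numbered 1 and narrowest in those numbered 3, in both fractions. Mcm2, named here after its values were seen, had 62.8, 209.8 and 389 CPM in Vmed libraries 1, 2 and 3 and 87.6, 239 and 496 CPM in the Vhigh libraries. Each Vhigh library exceeded the Vmed library of its number, and the order of the numbers was the same in both fractions. Cdt1, which loads the helicase onto origins, was likewise higher in Vhigh in 3 of 3 numbers, from 7.55 to 101 CPM in Vmed and from 16.3 to 114 CPM in Vhigh. The log2 fold changes were 0.28 for Mcm2 (standard error 0.74) and 0.41 for Cdt1 (standard error 1.11). Those of the other 8 replication genes lay between -0.26 for Cdc6, a partner of Cdt1 at origins, and 0.41 for Mcm7. Rrm1, the partner of Rrm2, was at -0.12 and Mcm3, Mcm4 and Mcm5 were at 0.17, -0.19 and 0.015. Pcna, the sliding clamp of the polymerases, and Tyms, which makes thymidylate, were at 0.31 and 0.19, and both have processed pseudogenes to which their reads may be lost or shared.

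A promoter element that did not enter the choice of genes was frequent among the replication genes. In the promoters of RefSeq (GRCm38.p6, 250 bases before to 50 after the start), which covered 34 of the 41 genes, the E2F element was searched as TTTGGCGC or TTTCGCGC on both strands. It was present in 5 of the 11 replication genes with a promoter (45.5%), in 1 of 11 mitotic genes and in 0 of 6 G1 genes, against 0.929% of all genes. A match describes the letters only and is not evidence of binding, and a missing match says nothing of the factor. The match nearest the start is shown for 3 helicase genes, in windows of 30 bases, 5′ to 3′ on the strand of the gene, with every match inside the window in capitals. The Mcm5 window holds both of the 2 overlapping matches of that promoter, the Mcm6 window 1 of 3, and the Mcm7 window the only one.
Mcm5, chr8:75109349-75109378, plus strand: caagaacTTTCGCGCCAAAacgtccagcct
Mcm6, chr1:128359734-128359763, minus strand: gattggacgggTTTGGCGCgaagtagctca
Mcm7, chr5:138171849-138171878, minus strand: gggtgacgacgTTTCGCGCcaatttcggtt

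The mitotic genes were the group with the smallest median difference, at 0.035 on the log2 scale. Of these genes, 7 of 13 were above 0 (53.8%, beside 48.9% of all tested genes) and 6 below. The median was below 0 without Vmed library 1 (-0.12) and without Vhigh library 1, 2 or 3 (-0.016, -0.023 and -0.078). Their summed level was 3162, 4249.8 and 4284 CPM in Vmed and 3369.6, 4004 and 4375 CPM in Vhigh. Ccnb2, a cyclin that activates Cdk1 at the entry into mitosis, was the most abundant of the group per kilobase in 5 of 6 libraries. It had 426, 264 and 233 CPM in Vmed libraries 1, 2 and 3 and 304, 285 and 263 CPM in the Vhigh libraries and a log2 fold change of -0.15 (standard error 0.45). Ccnb2 made up between 80.7% and 86.7% of the summed RPKM of the B-type cyclins Ccnb1 and Ccnb2, a balance that varied little. Both B-type cyclins have annotated pseudogenes. Cdc20 (chr4:118432901-118437352), the activator of the anaphase-promoting complex, had the largest difference of the group. Its levels were 102, 77.0 and 280.2 CPM in Vmed libraries 1, 2 and 3 and 90.6, 86.6 and 475 CPM in the Vhigh libraries. The libraries numbered 3 were the highest of both fractions, and without Vhigh library 3 the log2 fold change of 0.49 (standard error 0.79, exact two-sided permutation p = 0.7) was -0.77.

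The other mitotic genes had log2 fold changes between -0.35 for Mki67, the proliferation marker Ki-67, and 0.34 for Bub1, a kinase of the spindle checkpoint. Cdk1, the mitotic kinase, was among the steadiest of the 41, between 476 and 696 CPM over the 6 libraries. Its log2 fold change was -0.25 with a 95% interval of -1.18 to 0.67. Top2a, which untangles sister chromatids, was at -0.022 with an interval of -1.01 to 0.97, and Birc5 (survivin), of the chromosomal passenger complex, at 0.037 with -0.94 to 1.01. Aurka, the centrosomal Aurora kinase, was higher in Vhigh in 3 of 3 numbers, with 211, 286 and 150.5 CPM in Vmed and 223, 308 and 279 CPM in Vhigh. The fractions of Aurka overlapped, and its log2 fold change was 0.29 (standard error 0.45). The passenger kinase Aurkb was the most uneven member of this group within a fraction, with 20.6, 310.4 and 209.6 CPM in Vmed and 111, 226 and 227 CPM in Vhigh. Bub1b, the checkpoint protein BubR1, was at -0.045 and Ccnb1 at -0.17 on the log2 scale. The values of Aurka and Aurkb were chosen for printing after they were seen.

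Other promoter elements were frequent among the mitotic genes. The cell cycle genes homology region (CHR), searched as TTTGAA or TTCGAA on both strands, was present in 9 of the 11 mitotic genes with a promoter (81.8%), against 2 of 11 replication genes and 21.7% of all genes. The CCAAT box, read by NF-Y, was present in 10 of 11 mitotic genes (90.9%) and 8 of 11 replication genes, against 41.1% of all genes. Motifs were counted separately, and a base may belong to 2 of them. For 5 genes whose levels are given in the text, the CHR match nearest the start is shown in capitals, again in 30 bases on the strand of the gene. The promoters of Ccnb2 and Cdk1 hold 2 matches each, of which 1 is shown.
Aurka, chr2:172370521-172370550, minus strand: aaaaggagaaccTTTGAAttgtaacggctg
Ccnb2, chr9:70421533-70421562, minus strand: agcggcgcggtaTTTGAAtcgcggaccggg
Cdc20, chr4:118437344-118437373, minus strand: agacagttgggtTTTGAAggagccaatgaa
Cdk1, chr10:69352910-69352939, minus strand: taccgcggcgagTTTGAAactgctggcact
Plk1, chr7:122159453-122159482, plus strand: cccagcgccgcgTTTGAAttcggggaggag
All 5 windows hold the letters TTTGAA.

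Other genes of the same processes were read from the same fit. Of 46 further replication genes, 0 passed at an adjusted p under 0.05 and 1 at an unadjusted p under 0.05 (2.17%, beside 2.04% of all tested genes). This was Orc4, a subunit of the origin recognition complex, at -1.35 on the log2 scale (standard error 0.59). The next by p were the catalytic subunit of polymerase epsilon, Pole, at 1.31 (standard error 0.62), and Orc1 at 1.83 (standard error 0.95). Without Vhigh library 1 these were -1.17 for Orc4, 0.86 for Pole and 0.89 for Orc1. The median log2 fold change of the 46 was 0.28, with 36 above 0 (78.3%, beside 48.9% of all tested genes) and 10 below. Of the 46, 17 (37%) were higher in Vhigh in 3 of 3 numbers, beside 15.2% of all tested genes. In 4 of 46 (8.7%, beside 4.15%) the Vhigh libraries lay entirely above the Vmed libraries, Pole, Rpa2, Rfc2 and Cdc45. These counts used CPM from the gene total and were not repeated with other scalings. Rfc2 had 343 CPM in Vmed library 1 and 347 CPM in Vhigh library 2, and Cdc45 had 128 and 141 CPM there. The TMM factors of these libraries, 0.958 and 1.15, would reverse their order for both genes. The summed level of the 46 was 6463, 6179.8 and 5984 CPM in Vmed and 7911, 7644 and 7424 CPM in Vhigh, so that the fractions did not overlap. This separation depended on the scaling, since with TMM the highest Vmed sum, 6788 CPM, exceeded the lowest Vhigh sum, 6734 CPM, and with the median-of-ratios method the fractions overlapped too. The macrophage, mesenchyme and megakaryocyte sums given above were lower in each Vhigh library than in any Vmed library, and their part in this separation was not tested. Pf4 was the most abundant megakaryocyte marker in each Vmed library, and the sum was not tested without it. Pf4, Gp9 and Treml1 were each lower in every Vhigh library than in any Vmed library, but Vwf and Itgb3 overlapped. Vwf had 55.3, 242.9 and 71.1 CPM in Vmed and 149.1, 145.8 and 88.3 CPM in Vhigh.

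Of 24 further G1 and checkpoint genes, 0 passed the adjusted test and 0 had an unadjusted p under 0.05, with a median of 0.16. The 3 with the smallest p were Wee1, the kinase that restrains Cdk1, Tfdp1, the partner of E2F proteins, and E2f8, an E2F repressor, at 1.67, 0.75 and 1.44 on the log2 scale (standard errors 0.81, 0.52 and 1.11). These 3 of 24 (12.5%, beside 4.15% of all tested genes) were also those whose Vhigh libraries lay entirely above the Vmed libraries. Here and for the mitotic genes below, such counts used CPM from the gene total and were not repeated with other scalings. E2f8 had 3.09, 36.6 and 10.6 CPM in Vmed and 51.5, 42.2 and 41.2 CPM in Vhigh, a narrow gap. Wee1 had 25.7, 20.1 and 26.4 CPM in Vmed and 34.1, 62.1 and 140.4 CPM in Vhigh. Of 50 further mitotic genes, 0 passed the adjusted test and 0 had an unadjusted p under 0.05, with a median of 0.12. The smallest p belonged to Kif2c, Cdc25c and Kif23, at -1.12, 1.27 and -1.71. Kif23, a kinesin of cytokinesis, had 136, 323 and 251 CPM in Vmed and 0.188, 121 and 110.2 CPM in Vhigh. It and Ncaph, a condensin subunit, were the 2 of 50 (4%, beside 4.71%) that lay lower in each Vhigh library than in any Vmed library. Without Vhigh library 1, in which it was near 0, Kif23 was at -1.12, Kif2c at -0.74 and Cdc25c at 0.32 on the log2 scale.

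The levels of the 41 genes were next described by replicate number, since same-numbered libraries of the 2 fractions deviated together from the fraction means. By log2 CPM itself, correlated over the 12688 tested genes, the same number gave the closest pair for numbers 2 and 3 (0.80 and 0.79), whereas Vmed library 1 was closer to Vhigh library 2 (0.69) than to Vhigh library 1 (0.59). Of the 39 tested genes, 6 (15.4%) were higher in Vhigh in 3 of 3 numbers, beside 15.2% of all tested genes, and these were Ccnd3, Ccne2, Mcm2, Mcm6, Cdt1 and Aurka. Only Ccnd1 and Cdkn1b were lower in 3 of 3 (5.13%, beside 15.4%). The median difference of Vhigh from Vmed over the 39 genes was -0.17, 0.11 and 0.15 on the log2 scale in numbers 1, 2 and 3, beside -0.46, 0.18 and 0.040 over all tested genes. In contrast, 19 of 39 genes (48.7%) had their 2 highest libraries in a single number, beside 36% of all tested genes, and 24 of 39 (61.5%) had their 2 lowest libraries in a single number, beside 36.1%. Among tested genes with a mean of at least 10 CPM, to which 38 of the 39 belong, the shares were 38% and 38.4%. Of the sum of squares of log2 CPM, the number took a median of 74.7% over the 39 genes and the fraction 3.8%, beside 54.8% and 11.7% over all tested genes. The number has 3 levels and the fraction 2, so that unrelated values would also tend to give the number the larger share. The median level was 185 CPM over the 39 genes and 30.6 CPM over all tested genes, and these shares were not matched for level.

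The libraries numbered 1 were the 2 lowest for 15 of 39 genes (38.5%), beside 21.1% of all tested genes. These were the G1 genes Ccnd3, Cdk6, Cdk2 and E2f1, the inhibitor Cdkn1a, the replication genes Mcm2, Mcm3, Mcm4, Mcm5 and Cdt1, and the mitotic genes Mki67, Top2a, Aurkb, Plk1 and Bub1. The libraries numbered 3 were the 2 highest for 10 of 39 (25.6%), beside 15.4%, and these were Ccnd1, Ccnd3, Cdk2, Cdkn1a, Mcm2, Mcm6, Cdt1, Ccna2, Plk1 and Cdc20. They were the 2 lowest for 5 (12.8%, beside 12.3%), which were Ccne2, Rrm2, Tyms, Ccnb1 and Ccnb2. The libraries numbered 1 were the 2 highest for 6 genes, Cdk4, Cdkn1b, Pcna, Tyms, Ccnb2 and Birc5 (15.4%, beside 10.4%). Those numbered 2 were the 2 highest for 3, Cdc6, Top2a and Aurka (7.69%, beside 10.2%), and the 2 lowest for 4, Ccnd1, Cdk4, Ccna2 and Cdc20 (10.3%, beside 2.7%). Genes of the same phase were thus highest in different numbers. Among the mitotic genes, Plk1, the polo kinase, had 21.9, 135 and 213 CPM in Vmed and 21.4, 174 and 226 CPM in Vhigh, low in number 1, while Ccnb2 and Birc5 had their 2 highest libraries in number 1. Ccna2, the cyclin of S phase and G2, had 95.8, 79.7 and 459 CPM in Vmed and 177, 94.3 and 403 CPM in Vhigh, with number 3 the highest, although its exons overlap those of Exosc9 on the opposite strand. These genes were singled out after their values were seen.

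**Figure D4:**
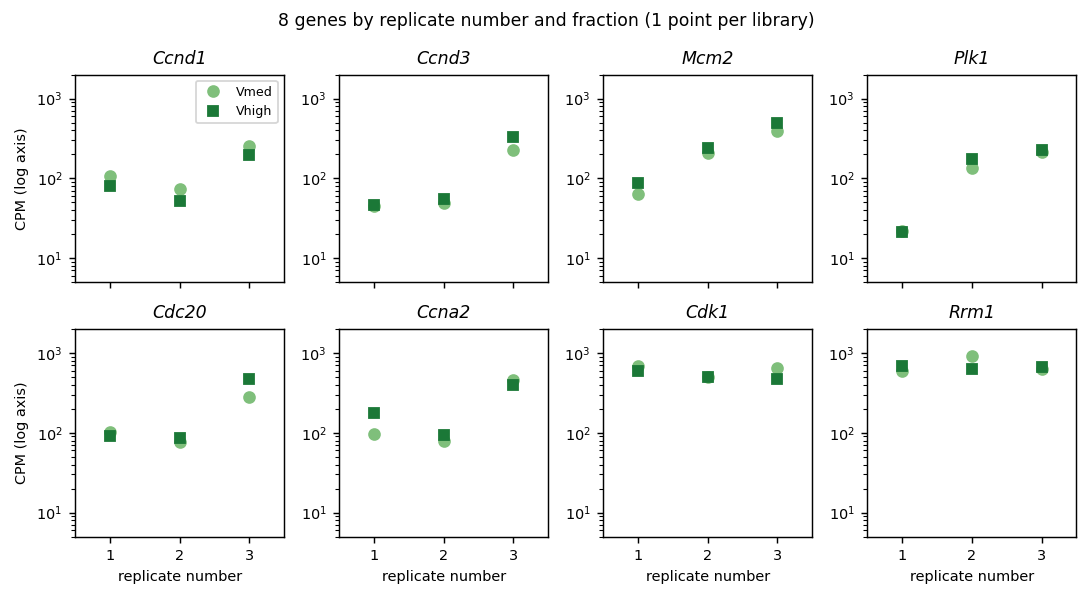
CPM on a log axis against the replicate number for 8 genes chosen after their values were seen, with 1 circle (Vmed) and 1 square (Vhigh) per number. The circle and square of a number mostly lie close together, while Ccnd3, Mcm2, Plk1, Cdc20 and Ccna2 differ between numbers by more than between fractions, and Cdk1 and Rrm1 are nearly level.

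With the replicate number as the term tested and the fraction in the model, edgeR's quasi-likelihood test gave 0 of 39 genes and 0% of all tested genes at an adjusted p under 0.05, with a smallest adjusted p of 0.156 among the 39. At an unadjusted p under 0.05 there were 14 of 39 (35.9%), beside 12.4% of all tested genes and 16.4% of those with at least 10 CPM. These were Ccnd1, Ccnd3, Cdk4, Cdk2, Mcm2, Mcm3, Mcm5, Mcm6, Cdt1, Rrm2, Tyms, Ccna2, Plk1 and Cdc20. The likelihood ratio test, which does not allow for the uncertainty of each gene's dispersion, gave 5 of 39 (12.8%) at an adjusted p under 0.05, beside 6.42% of all tested genes, and 13 of 39 (33.3%) at an unadjusted p under 0.05, beside 22.5%. The 5 were Ccnd3, Mcm2, Ccna2, Plk1 and Cdc20, at 2.53, 2.50, 1.65, 3.28 and 1.88 on the log2 scale for number 3 over number 1. The test of the number was added after the data had been seen. The labels give the number without saying what it stands for.

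Base composition moved with the replicate number over all genes. For tested genes ordered by the GC content of the longest annotated transcript and cut into 5 groups of equal size, the median log2 difference of number 3 over number 1 was -0.22, 0.053, 0.39, 0.97 and 1.61 from the lowest to the highest group. The 10 genes with their 2 highest libraries in number 3 had a median GC content of 53.1% (46.1% to 57.8%), the 5 with their 2 lowest there had 46.0% (36.3% to 49.3%), and all 39 had 49.2%. Ccna2, Mcm2, Ccnd3, Plk1 and Cdt1 lay above the median of their GC group, and Cdk4, Tyms and Rrm2 below it. Rn45s was also at its highest in the libraries numbered 3. The alignment shares moved with the number too. Of the reported alignments, 17.97%, 28.1% and 7.996% overlapped no annotated gene in Vmed libraries 1, 2 and 3. In the Vhigh libraries these shares were 16.5%, 35.6% and 7.09%. Alignments that were not unique made up 54.6%, 42.8% and 48.2% in Vmed and 57.7%, 41.3% and 47.5% in Vhigh. The part of base composition, of the ribosomal RNA share and of these alignment shares in the differences between numbers was not tested.

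**Figure D5:**
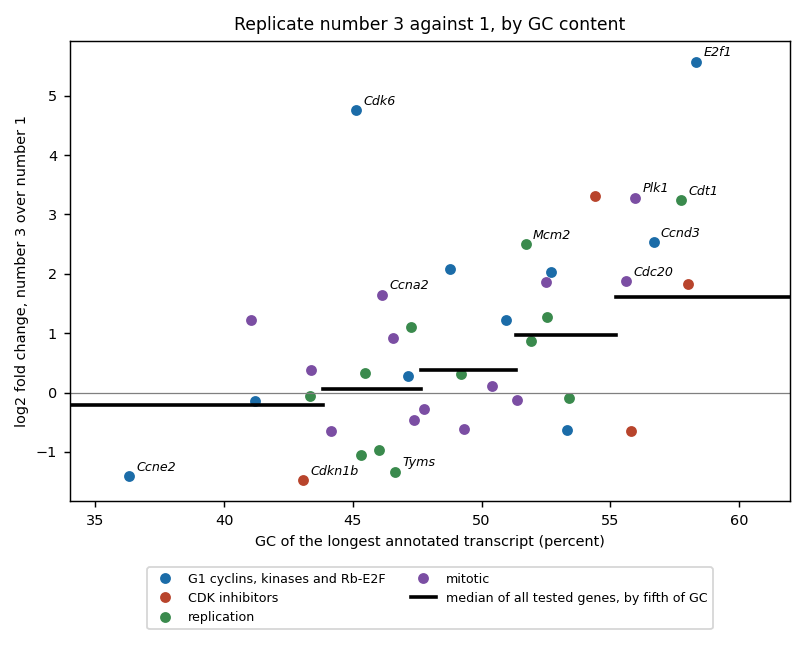
Log2 fold change of number 3 over number 1 against the GC content (percent) of the longest annotated transcript for the 39 tested genes, coloured by group, with black bars for the median of all tested genes in each of 5 groups by GC content. The bars climb from -0.22 to 1.61, and Plk1, Cdt1, Ccnd3 and E2f1 lie at the upper right.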

How the data were processed

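The 6 libraries (3 Vmed, labelled G2Vi, and 3 Vhigh, labelled G2Vh) were grouped by their labels, and the replicate number was taken from the title. RNA was amplified by the SMARTer protocol and sequenced as single reads. The submitters' processing notes name TopHat, Bowtie (1.1.2) and HTSeq, with GRCm38/mm10 as the genome. The values the authors deposited are whole-number read counts for each gene that were not normalized. The annotation and the strand setting are not given in the sources used here. Reads that share sequence among copies, as for genes with pseudogenes, may be missing from the counts. In each file 5 summary lines name no gene, hold between 55.0% and 77.2% of all reported alignments and were left out of totals and tests.

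From the counts, CPM were computed with the total over genes, and RPKM with the exon union length of GENCODE M21. Fold changes came from edgeR (4.0.16, R 4.3.3) with genes kept by filterByExpr (12688 of 24062), TMM normalization and a quasi-likelihood test of the fraction, without other terms. P-values were adjusted by Benjamini-Hochberg over all tested genes, with 0.05 as the threshold. The number of counts taken as detectable was 3. Alternatives were other scalings, no filter on low counts, removal of Rn45s, the likelihood ratio test, DESeq2 (1.42.0), limma-voom (limma 3.58.1), the replicate block, thinning and leaving out libraries. The pairing of libraries by number was checked from their deviations from the fraction means, which correlated across genes at 0.21, 0.21 and 0.39 for same-numbered pairs and between -0.29 and -0.0061 for the others. The deviations within a fraction cancel out for each gene, so that positive values for same-numbered pairs bring negative ones among the others. The negative values are therefore no separate evidence of pairing. The fits were also run on simulated counts. For the test of the fraction these held no effect of the replicate number, and no result given here rests on them.

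The members and lists were chosen with earlier results of these data known. Per-library values are printed for genes that did not overlap or had an unadjusted p under 0.05 (none), for the most abundant per kilobase and the most different gene of each group, for D-type cyclins and CDK inhibitors, and for genes at 0 in a library. Other genes are named as chosen after their values were seen, or by smallest p in a list. GC content was taken from the longest GENCODE transcript (12130 of the tested genes had one). Gene symbols matched the annotation directly (22750) or through an older symbol (934), and 378 did not match.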

Additional observations from a re-analysis of the deposited data

How the results depend on the processing

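The number of the 39 genes called between the fractions was 0 under every alternative run. The number over all tested genes, 0, rose to 37 without the filter on low counts, 21 with the likelihood ratio test, 51 with DESeq2 and 74 with the likelihood ratio test and the replicate block. It ranged from 0 to 1 with a single library left out, and was 1 without Vhigh library 1. The replicate block with the quasi-likelihood test gave 0 genes and changed no call. The medians of the G1, inhibitor and replication genes ranged from -0.33 to 0.21, -1.10 to -0.52 and -0.12 to 0.23 with a single library left out. The median of the mitotic genes ranged from -0.12 to 0.12 with a single library left out and was -0.15 without both libraries numbered 1. For the replicate number, the likelihood ratio test gave 5 of the 39 genes against 0. None of the fold changes that turned sign had passed a test. Without both libraries numbered 1 these were Cdk4 at 0.043, Pcna at -0.056, Rrm2 at -0.26, Tyms at -0.17, Ccna2 at -0.15, Ccnb2 at 0.070, Aurkb at -0.26 and Birc5 at -0.23. With limma-voom they were Cdk2 at -0.12, E2f1 at -0.44, Top2a at 0.059 and Birc5 at -0.034. With the replicate block they were, by the quasi-likelihood and the likelihood ratio test in turn, Cdk2 at -0.15 by both, E2f1 at -0.0945 and -0.0911, Top2a at 0.0598 by both, Bub1 at -0.0124 and -0.0126, and Birc5 at -0.0175 by both. Mcm5, at 0.015, was at -0.0227 with the median-of-ratios size factors and with DESeq2, at -0.0132 with upper quartile normalization, at -0.0055 without Rn45s and at -0.0133 after thinning to the smallest library. Top2a was at 0.0067 with the gene total alone. Leaving out a single library in turn gave log2 fold changes of -1.10 to 0.27 for Ccnd1, -0.0037 to 0.29 for Ccnd2, -1.09 to 1.60 for Ccnd3, -0.32 to 0.30 for Cdk4, -0.66 to 0.67 for Cdk2, -0.42 to 0.021 for Cdkn2d, -0.47 to 1.01 for Mcm2, -0.19 to 0.64 for Mcm3, -0.26 to 0.55 for Mcm5, -0.56 to 2.18 for Cdt1, -0.33 to 0.63 for Pcna, -0.22 to 0.052 for Rrm1. The same gave -0.28 to 0.45 for Rrm2, -0.41 to 0.56 for Tyms, -0.57 to 1.36 for Ccna2, -0.39 to 0.013 for Ccnb1, -0.32 to 0.20 for Ccnb2, -0.29 to 0.27 for Top2a, -0.49 to 0.66 for Aurkb, -0.41 to 0.82 for Plk1, -0.066 to 0.81 for Bub1, -0.22 to 0.30 for Bub1b, -0.77 to 1.28 for Cdc20 and -0.31 to 0.22 for Birc5. The other genes kept their sign, at 1.18 to 3.06 for Cdk6, -3.00 to -0.69 for Ccne1, 0.13 to 0.86 for Ccne2, -2.43 to -0.74 for Rb1, 0.12 to 1.94 for E2f1, -1.92 to -0.24 for Cdkn1a, -1.34 to -0.14 for Cdkn1b, -9.06 to -1.17 for Cdkn2c, -0.29 to -0.084 for Mcm4, 0.19 to 1.18 for Mcm6, 0.24 to 0.70 for Mcm7, -0.40 to -0.0068 for Cdc6, -0.43 to -0.12 for Cdk1, -0.65 to -0.031 for Mki67 and 0.092 to 0.48 for Aurka. The cause of these changes was not tested. With 3 libraries per fraction, an exact permutation test cannot go below 0.1, and differences smaller than the intervals given could not be seen. The test of the replicate number, the values of further genes without Vhigh library 1 and the comparison with genes of at least 10 CPM were chosen after seeing the data.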
